A study of Homo sapiens with 12 samples.

Results

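The MAPK output and immediate early genes are a module of 32 genes whose transcripts follow the activity of the ERK pathway or appear soon after cells are stimulated. The members were taken by name, not by a measured value, from a table of read counts for 23705 genes, whose Entrez gene numbers were matched to symbols, and all 32 were in it. Expression was high enough to test 31 of them, among 13522 tested genes. The remaining member, *EGR2*, ranged from 0 to 0.316 CPM (counts scaled to a common library size), around or under the level that 3 counts would give in these libraries (0.259 to 0.371 CPM), and was not tested. CPM are scaled throughout by the TMM factors of edgeR.

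The cells were A375, an established human BRAF-mutant line from metastatic melanoma, at passages 30 to 32 in DMEM with 10% FBS. They received for 24 h either 5 μM rosiglitazone (RGZ), an agonist of the nuclear receptor PPARγ, or T0070907, which antagonizes PPARγ, at 2 μM, or both agents (the combination). The vehicle DMSO, present in all libraries at a final dilution of 1 in 10000, was given alone to the controls. RNA was sequenced from 3 independent experiments, each with 1 library per condition made from pooled technical replicates, which gives 12 libraries. Whether the members followed the treatment or the culture experiment was the question asked of them.

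The total number of counts in experiments 1, 2 and 3 was 8687191, 8319455 and 8411073 with vehicle. For RGZ it was 9874966, 9001174 and 10096418. The T0070907 libraries had 8524144, 10822352 and 11375227 counts, and those of the combination 8426908, 9327546 and 9471903. The levels of the leading members are given per kilobase of transcript; other levels are CPM of a gene, or CPM summed over a list, without regard to transcript length.

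In the MAPK cascade, RAF kinases activate MEK, MEK activates ERK, and ERK switches on transcription factors that raise the immediate early genes within minutes and the delayed early genes after them. Many products of these genes act back on the cascade: dual-specificity phosphatases remove phosphate from ERK and its relatives, while Sprouty and SPRED proteins restrain the signal near RAS and RAF. In melanomas with a mutant *BRAF*, ERK signalling is active without an external growth factor, and transcripts such as *DUSP6*, *SPRY4*, *ETV4* and *PHLDA1* are widely used as a readout of it.

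The label was set against marker genes of the melanocyte lineage. *SOX10* averaged 308 CPM over the 12 libraries, *ERBB3* 216 CPM, *MITF* 43.8 CPM and *PAX3* 17.8 CPM. The pigment genes were hardly present: *PMEL* averaged 0.917 CPM, *MLANA* 0.189 CPM and *TYRP1* 0.422 CPM, while *TYR* had no count in any of the 12 libraries. Among markers of other cell types, *KRT1* was absent from all 12 libraries, and *PTPRC* (0.0614 CPM), *CD3E* (0.0103 CPM), *COL1A2* (0.227 CPM), *PECAM1* (0.273 CPM) and *CDH1* (0.0428 CPM) were near 0. Others were present: *KRT10* averaged 79.1 CPM, *CD68* 53.4 CPM, *KRT14* 20.5 CPM, *COL1A1* 12.3 CPM, *LYZ* 8.31 CPM, *LUM* 4.89 CPM and *KDR* 4.45 CPM.

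In vehicle, per kilobase, the leading members were *FOSL1*, the AP-1 subunit FRA1, at 223 CPM, and *IER3*, a regulator of cell survival, at 131 CPM. *ETV4*, an ETS transcription factor, followed at 98.8 CPM per kilobase. *PHLDA2* and *PHLDA1*, pleckstrin-homology proteins, stood at 58.8 and 58.7 CPM per kilobase, *SPRY2* at 55.5, *IER2* at 53.1, *DUSP4* at 51.9, *JUND* at 42.2 and *DUSP6* at 36.3. The early factors *FOS*, *FOSB*, *EGR3* and *EGR1* were low, at 1.62, 1.86, 2.14 and 2.98 CPM per kilobase.

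Promoters of 5 members are shown here because they hold a marked motif and belong to members whose libraries stood above the others in experiment 3 or under RGZ. *EGR1*, *FOS*, *FOSB* and *SPRY4* were higher in every library of experiment 3 than in the other 8 libraries, and *JUN* was higher in every RGZ library than in the other 9. Each sequence is the 250 bases before the transcription start from RefSeq (assembly GRCh38.p14), 5′ to 3′ on the strand of the gene: *EGR1* at chr5:138465229-138465478 (+ strand), *FOS* at chr14:75278578-75278827 (+ strand), *FOSB* at chr19:45467746-45467995 (+ strand), *SPRY4* at chr5:142324248-142324497 (- strand) and *JUN* at chr1:58784048-58784297 (- strand). Capitals mark CArG boxes and the 5-base core of the cAMP response element (TGACG or, on the other strand, CGTCA). The matched promoters of *DUSP6*, which also stood above in experiment 3, and of *DUSP2* and *KLF6*, which stood above under RGZ, hold neither motif, and *SPRY2*, which stood above in experiment 3, holds the core in 1 of its 3 promoters. *FOSL2*, whose experiment 3 libraries stood below the other 8, holds the core 2 times and is not shown.
EGR1: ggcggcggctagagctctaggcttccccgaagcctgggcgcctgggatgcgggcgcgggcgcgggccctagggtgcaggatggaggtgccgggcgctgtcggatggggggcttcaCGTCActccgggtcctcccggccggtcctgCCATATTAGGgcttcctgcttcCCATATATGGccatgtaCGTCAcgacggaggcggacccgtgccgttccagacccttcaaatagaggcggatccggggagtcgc
FOS: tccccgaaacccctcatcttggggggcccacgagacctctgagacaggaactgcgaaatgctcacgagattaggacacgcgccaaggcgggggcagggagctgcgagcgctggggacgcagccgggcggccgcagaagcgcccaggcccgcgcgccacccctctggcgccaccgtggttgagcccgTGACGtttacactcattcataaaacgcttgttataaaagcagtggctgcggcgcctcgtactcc
FOSB: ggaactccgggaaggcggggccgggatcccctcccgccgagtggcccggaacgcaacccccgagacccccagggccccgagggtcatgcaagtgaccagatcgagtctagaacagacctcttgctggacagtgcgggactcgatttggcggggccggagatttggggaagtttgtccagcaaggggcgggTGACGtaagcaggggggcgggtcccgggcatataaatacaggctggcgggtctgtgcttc
SPRY4: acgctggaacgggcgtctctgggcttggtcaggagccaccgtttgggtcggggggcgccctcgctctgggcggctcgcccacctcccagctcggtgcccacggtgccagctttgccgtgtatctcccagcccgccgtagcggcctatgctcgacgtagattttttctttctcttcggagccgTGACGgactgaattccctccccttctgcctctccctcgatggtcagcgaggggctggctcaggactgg
JUN: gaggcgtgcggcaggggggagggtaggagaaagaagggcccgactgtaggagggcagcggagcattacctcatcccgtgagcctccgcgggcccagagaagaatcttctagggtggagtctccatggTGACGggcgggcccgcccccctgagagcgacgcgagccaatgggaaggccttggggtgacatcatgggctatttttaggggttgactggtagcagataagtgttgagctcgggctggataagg

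Promoters of 23 of the 32 members were matched; *DUSP4*, *DUSP5*, *ETV4*, *ETV5*, *EGR3*, *FOSL1*, *IER3*, *PHLDA2* and *MYC* were not among them. *EGR1* held 2 CArG boxes, 105 and 83 bases before its start. Among the matched members a CArG box, the serum response factor motif, was in 2 (*EGR1* and *EGR2*), and in 1.44% of all 27305 genes with a promoter in the table. The core TGACG or CGTCA was in 14 members (60.9%) and in 24.9% of all genes. It was in 9 of 15 matched members called for experiment and in 4 of 8 called for RGZ with the block, not more often than in all matched members. The full element TGACGTCA, which contains that core on both strands, was in 3 members (*DUSP1*, *JUND* and *MAFF*) and in 2.03% of genes. Searched on both strands, the AP-1 site TGACTCA was in 1 member (*SPRED3*; 5.19% of genes), the EGR site GCGTGGGCG or GCGGGGGCG in 4 (*DUSP2*, *SPRY1*, *SPRY2* and *KLF6*; 1776 of the 27305 genes), and the ETS site CCGGAAGT in 0 (4.13%). A direct repeat of AGGTCA with 1 base between the copies, the form PPAR binds, was in 0 members and 0.022% of genes. Genes with several starts were counted once if any of their promoters held the motif, and a match describes these letters only.

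Of the 31 tested members, 20 differed between the culture experiments, and 16 between treatments with experiment as a block. The difference between these counts was not tested. Leaving out single libraries gave 18 to 26 for experiment and 12 to 20 for treatment, ranges that do not measure the sampling spread of the counts. In the joint test of the 3 experiments, with condition as a term, 20 of the 31 tested members were called, against 30.5% of all tested genes (called means an adjusted p under 0.05 in the quasi-likelihood test of edgeR, with p adjusted by Benjamini and Hochberg's method over all tested genes). In the joint test of the 4 conditions without experiment in the model, 4 members were called (*ETV4*, *FOSL1*, *JUN* and *MYC*), against 2.35% of all genes. With experiment as a block, 16 members were called for condition, against 20.6% of all genes. Without the block, leaving out the RGZ library of experiment 1, 2 or 3 lowered the count of 4 to 2 each time.

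Setting the test of experiment beside that of condition with the block, 12 members were called in both, 8 for experiment alone, 4 for condition alone (*ETV1*, *ETV4*, *ETV5* and *MYC*) and 7 for neither. Over all tested genes the corresponding shares were 10.7% for both, 19.8% for experiment alone, 9.99% for condition alone and 59.5% for neither. The members called for experiment alone were *DUSP4*, *DUSP7*, *SPRY2*, *SPRED1*, *EGR1*, *EGR3*, *FOS* and *FOSB*. Those called for neither were *DUSP2*, *SPRED2*, *SPRED3*, *JUNB*, *IER2*, *PHLDA2* and *MAFF*.

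**Figure D1:**
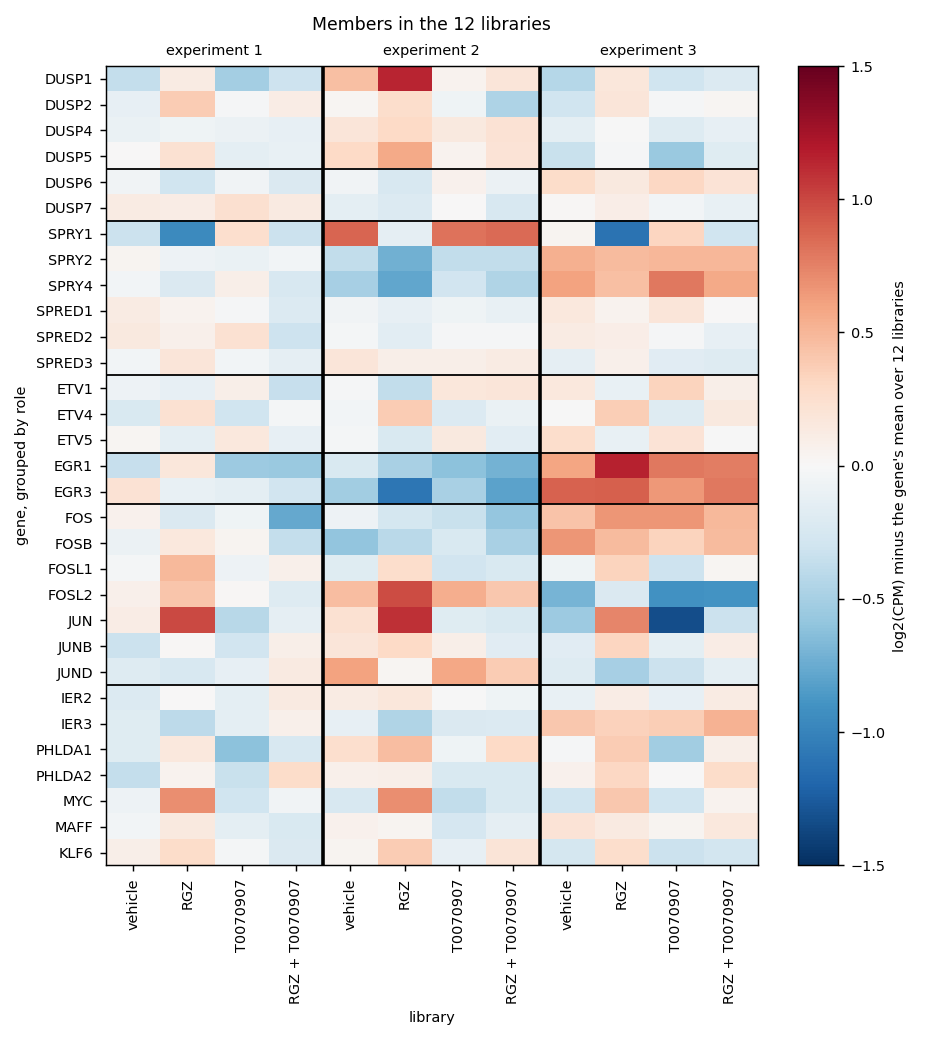
Heat map of log2 CPM minus the gene's mean over the 12 libraries, for the 31 tested members (vertical axis, grouped by role) in each library (horizontal axis, by experiment and condition). *EGR1*, *EGR3*, *SPRY2* and *SPRY4* were high in all 4 libraries of experiment 3, whereas *MYC* was high in the 3 RGZ libraries.

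The variance of log2 CPM was divided between experiment and condition, which the balanced layout of 4 conditions by 3 experiments allows without overlap. Over the 31 members the median share that followed experiment was 46.1%, against 27.7% over all tested genes. The median share that followed condition was 36.4%, against 34.4% over all genes. Experiment took more than 50% of the variance in 15 members (48.4%; all genes 25%) and condition in 8 (25.8%; all genes 26.7%). These medians depended on which experiments were included: without experiment 1 they were 47.7% for experiment and 30.7% for condition, without experiment 2 they were 24.5% and 61.8%, and without experiment 3 they were 18.7% and 45.01%. Over all genes the medians were 23.5% and 39.4% without experiment 1, 12.3% and 58.4% without experiment 2, and 16.7% and 46.1% without experiment 3.

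Median shares are given by role, over 2 to 7 tested members each; differences between roles were not tested. The EGR zinc fingers had the highest median share by experiment, 89.3%, with 5.45% by condition. Cytoplasmic ERK phosphatases (*DUSP6* and *DUSP7*) had 73.5% by experiment and 17.1% by condition, and the AP-1 subunits 73.1% by experiment and 16.8% by condition. Within the AP-1 subunits, *FOSL1* (14.2% by experiment, 82.1% by condition), *JUN* (15.7% and 77.8%) and *JUNB* (20.8% and 39.7%) had the larger share by condition. The nuclear dual-specificity phosphatases had 57.1% by experiment and 37.2% by condition, and the Sprouty and SPRED inhibitors 48.1% by experiment and 30.1% by condition. The 7 other early response genes had 26.6% by experiment and 39.9% by condition. The PEA3 group of ETS factors (*ETV1*, *ETV4* and *ETV5*) had 18.3% by experiment and 74.9% by condition. Known PPAR target genes served as a reference for treatment: over *ANGPTL4*, *PDK4*, *CPT1A* and *PLIN2* the median share was 2.46% by experiment and 95.3% by condition. Even so, 3 of these 4 genes were called in the joint test of experiments, against 30.5% of all tested genes. Among the members, *MYC* came closest to that reference, with 1.71% by experiment and 92.4% by condition.

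**Figure D2:**
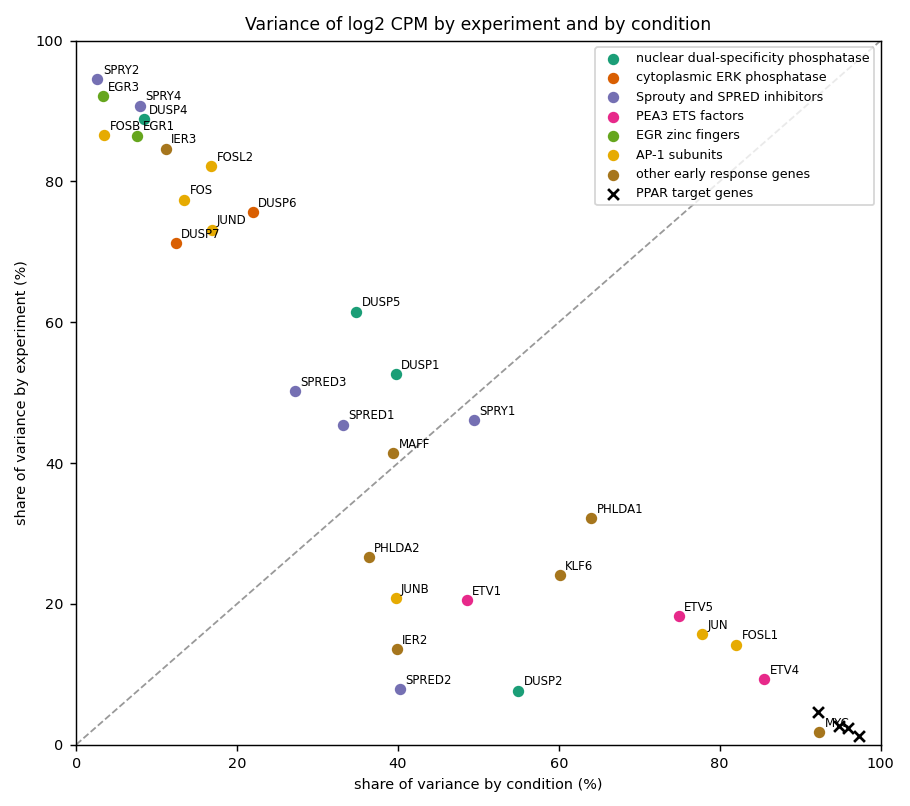
Share of each member's variance that followed experiment (vertical axis, percent) against the share that followed condition (horizontal axis, percent), coloured by role, with 4 PPAR target genes as crosses. *SPRY2* (94.5% by experiment) and *EGR3* (92.2%) lie at the upper left, *MYC* (92.4% by condition) and *ETV4* (85.6%) at the lower right.

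Between experiments the module did not move as a block: *EGR1*, *EGR3*, *FOS*, *FOSB*, *SPRY2* and *SPRY4* were high in experiment 3, while *DUSP1*, *DUSP4*, *DUSP5*, *SPRY1*, *FOSL2* and *JUND* were high in experiment 2. Experiments 3 and 2 differed in 21 members (12 without condition in the model), 11 higher and 10 lower in experiment 3, against 25.9% of all tested genes called (11.5% higher and 14.4% lower). Experiments 3 and 1 differed in 13 members, 10 higher and 3 lower, against 12% of all genes (6.14% higher and 5.81% lower), and in 8 members once the vehicle library of experiment 3 was left out. Experiments 2 and 1 differed in 12 members (6 without condition in the model), 7 higher and 5 lower in experiment 2, against 20.2% of all genes (11.4% higher and 8.86% lower). All 4 libraries of experiment 3 lay above the other 8 libraries in 8 members (*DUSP6*, *SPRY2*, *SPRY4*, *EGR1*, *EGR3*, *FOS*, *FOSB* and *IER3*), against 2.47% of all genes. All 4 libraries of experiment 2 lay below the other 8 in 3 members (*SPRY2*, *SPRY4* and *EGR3*), against 3.25% of all genes. The opposite patterns held 1 member each, *DUSP4* with experiment 2 above (all genes 4.94%) and *FOSL2* with experiment 3 below (all genes 2.74%). For experiment 1, *DUSP7* alone stood above (all genes 0.873%) and 0 members below (all genes 0.629%).

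**Figure D3:**
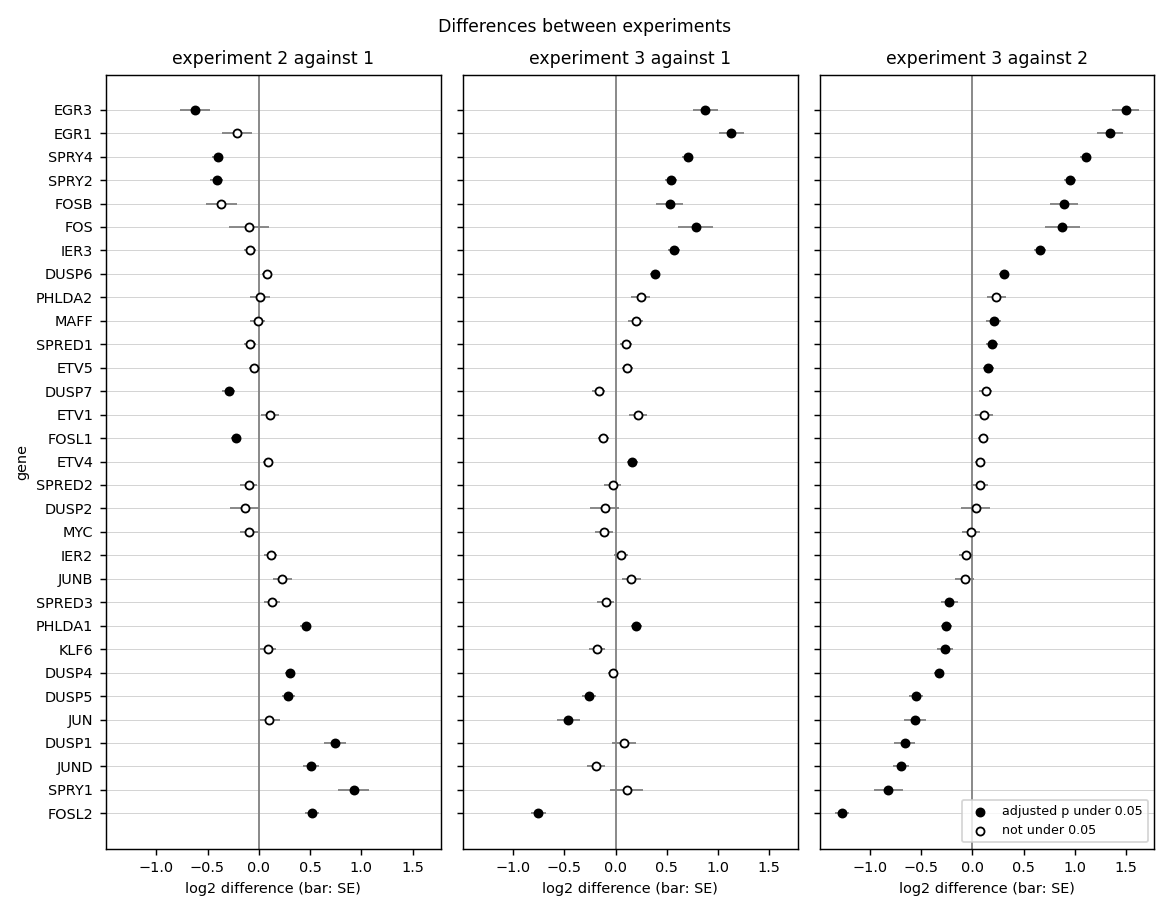
Log2 difference (horizontal axis, bars show the standard error) of each tested member between experiments 2 and 1, 3 and 1, and 3 and 2, with filled points for an adjusted p under 0.05. *EGR3* lies at 1.50 and *FOSL2* at -1.27 for experiment 3 against 2, the ends of the range.

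Among the nuclear phosphatases, which inactivate ERK, p38 and JNK in the nucleus to differing degrees, *DUSP1*, *DUSP4* and *DUSP5* were highest in experiment 2. *DUSP4* lay between 319.9 and 357 CPM in experiment 2 and between 252.9 and 287.6 CPM in the other 8 libraries, and it was lower in experiment 3 than in experiment 2 (log2 difference -0.33, SE 0.04, adjusted p = 1.24e-05, edgeR). *DUSP1* was also lower in experiment 3 than in experiment 2 (log2 difference -0.66, SE 0.11, adjusted p = 9.40e-05, edgeR), a call lost in a model without condition (adjusted p = 0.0518, edgeR). *DUSP5* was lower in experiment 3 than in experiment 2 (log2 difference -0.55, SE 0.07, adjusted p = 3.93e-06, edgeR). *DUSP2* ranged from 4.42 to 7.90 CPM and was called in no comparison of experiments.

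*DUSP6*, the cytoplasmic phosphatase that acts on ERK and is read as a gauge of its activity, was at 147, 124, 147 and 131 CPM in experiment 1, 147, 129, 159.8 and 143 CPM in experiment 2 and 184, 169, 188 and 175 CPM in experiment 3 (vehicle, RGZ, T0070907 and the combination in that order, as in the sentences on experiments that follow). All 4 libraries of experiment 3 lay above the other 8, and the difference from experiment 2 was called (log2 difference 0.31, SE 0.05, adjusted p = 5.31e-05, edgeR). Against experiment 1 it was called too (log2 difference 0.38, SE 0.05, adjusted p = 1.97e-05, edgeR). *DUSP7*, a related phosphatase, ranged from 48.0 to 67 CPM, with the 4 libraries of experiment 1 above the other 8, and was lower in experiment 2 than in experiment 1 (log2 difference -0.29, SE 0.06, adjusted p = 0.00323, edgeR).

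The Sprouty genes followed experiment in opposite directions. *SPRY2*, an inhibitor of receptor tyrosine kinase signalling, stood at 143, 132, 130.1 and 135 CPM in experiment 1, 107, 84.0, 108 and 108 CPM in experiment 2 and 201, 193, 196 and 197 CPM in experiment 3. The 3 experiments did not overlap: every library of experiment 2 was below every library of experiment 1, and those were below every library of experiment 3. *SPRY2* was higher in experiment 3 than in experiment 2 (log2 difference 0.95, SE 0.06, adjusted p = 6.68e-10, edgeR) and lower in experiment 2 than in experiment 1 (log2 difference -0.41, SE 0.06, adjusted p = 8.45e-05, edgeR). *SPRY4*, a relative with the same role, was measured at 108, 95.1, 118 and 93.6 CPM in experiment 1, 78.2, 64.4, 90.1 and 81.1 CPM in experiment 2 and 167, 151, 192 and 164 CPM in experiment 3. Its experiments did not overlap either, and in each of them the T0070907 library was the highest and the RGZ library below vehicle. The difference between experiments 3 and 2 was called (log2 difference 1.10, SE 0.06, adjusted p = 4.08e-11, edgeR), as was that between experiments 2 and 1 (log2 difference -0.40, SE 0.06, adjusted p = 6.66e-05, edgeR).

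*SPRY1*, by contrast, was highest in experiment 2: it was at 4.20, 2.70, 6.24 and 4.20 CPM in experiment 1, 9.64, 4.79, 9.22 and 9.46 CPM in experiment 2 and 5.41, 2.44, 6.55 and 4.29 CPM in experiment 3. Within each experiment the RGZ library was below the other 3, and the RGZ library of experiment 2 overlapped the other experiments. *SPRY1* was higher in experiment 2 than in experiment 1 (log2 difference 0.92, SE 0.15, adjusted p = 0.000221, edgeR) and lower in experiment 3 than in experiment 2 (log2 difference -0.82, SE 0.14, adjusted p = 0.000229, edgeR). In a model without condition neither difference was called (adjusted p = 0.0771 and 0.0856, edgeR). The SPRED genes, whose products bind RAS regulators and dampen RAF activation, moved less. *SPRED1* ranged from 73.5 to 95.9 CPM and was higher in experiment 3 than in experiment 2 (log2 difference 0.19, SE 0.06, adjusted p = 0.0206, edgeR). *SPRED3* ranged from 16.7 to 21.7 CPM and was lower in experiment 3 than in experiment 2 (log2 difference -0.23, SE 0.08, adjusted p = 0.0496, edgeR). Leaving out single libraries ended both calls, with adjusted p of 0.0661 to 0.0963 for *SPRED1* and 0.0583 to 0.154 for *SPRED3* (edgeR): for *SPRED1* without the vehicle or RGZ library of experiment 2, the T0070907 library of experiment 2 or 3 or the combination library of experiment 3, and for *SPRED3* without any library other than the RGZ library of experiment 2 or the combination library of experiment 1.

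*SPRED2* had among the smallest shares by experiment of members above 10 CPM (7.88%). It was at 59.2, 56.2, 62.7 and 43.0 CPM in experiment 1, 52.1, 47.6, 52.8 and 52.8 CPM in experiment 2 and 58.2, 57.0, 52.5 and 48.9 CPM in experiment 3. The experiments overlapped, and the lowest value was the combination library of experiment 1. None of the *SPRED2* tests between experiments passed; the difference between experiments 3 and 2 was 0.07 (SE 0.08, adjusted p = 0.584, edgeR).

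The EGR zinc-finger factors, early transcription factors induced within minutes of a stimulus, had the largest spans between experiment means among the tested members (1.49 for *EGR3* and 1.31 for *EGR1*, log2). *EGR1* was at 7.04, 10.1, 6.12 and 6.05 CPM in experiment 1, 7.62, 6.39, 5.82 and 5.47 CPM in experiment 2 and 13.4, 19.9, 15.5 and 15.2 CPM in experiment 3. The 4 libraries of experiment 3 were above the other 8, and those of experiments 1 and 2 overlapped. *EGR1* was higher in experiment 3 than in experiment 2 (log2 difference 1.34, SE 0.13, adjusted p = 1.83e-07, edgeR) and than in experiment 1 (log2 difference 1.13, SE 0.13, adjusted p = 7.03e-06, edgeR). *EGR3* was at 8.74, 6.96, 6.82 and 6.18 CPM in experiment 1, 5.24, 3.54, 5.37 and 4.31 CPM in experiment 2 and 13.9, 14.01, 11.8 and 12.97 CPM in experiment 3. Its 3 experiments did not overlap, with experiment 2 lowest and experiment 3 highest. For *EGR3* the difference between experiments 3 and 2 was called (log2 difference 1.50, SE 0.13, adjusted p = 7.12e-08, edgeR), and so was that between experiments 3 and 1 (log2 difference 0.87, SE 0.12, adjusted p = 8.78e-05, edgeR) and that between experiments 2 and 1 (log2 difference -0.62, SE 0.15, adjusted p = 0.00632, edgeR).

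The AP-1 subunits, which pair into a dimeric transcription factor, divided by experiment. *FOS* was at 3.29, 2.70, 3.003 and 1.85 CPM in experiment 1, 2.98, 2.63, 2.51 and 2.10 CPM in experiment 2 and 4.24, 4.97, 4.997 and 4.39 CPM in experiment 3. *FOSB*, its close relative, was at 6.25, 7.38, 6.82 and 5.19 CPM in experiment 1, 4.40, 5.02, 5.64 and 4.73 CPM in experiment 2 and 10.5, 9.24, 8.36 and 9.22 CPM in experiment 3. For both genes, the 4 libraries of experiment 3 were above the other 8, and experiments 1 and 2 overlapped. *FOS* was higher in experiment 3 than in experiment 2 (log2 difference 0.88, SE 0.17, adjusted p = 0.000744, edgeR), and *FOSB* likewise (log2 difference 0.89, SE 0.14, adjusted p = 5.80e-05, edgeR). *FOSL2*, which encodes FRA2, went the other way and was at 37.8, 47.6, 36.2 and 31.2 CPM in experiment 1, 49.4, 70.3, 51.9 and 47.2 CPM in experiment 2 and 22.1, 30.9, 19.04 and 19.2 CPM in experiment 3. All 4 libraries of experiment 3 lay below the other 8, and the RGZ library was the highest within each experiment. *FOSL2* was lower in experiment 3 than in experiment 2 (log2 difference -1.27, SE 0.07, adjusted p = 1.22e-10, edgeR) and than in experiment 1 (log2 difference -0.75, SE 0.07, adjusted p = 1.40e-06, edgeR).

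*JUND*, an AP-1 subunit that is expressed without a stimulus in many cells, was at 63.1, 61.1, 66.4 and 79.5 CPM in experiment 1, 109.5, 73.5, 108 and 93.9 CPM in experiment 2 and 63.1, 51.4, 57.6 and 65.2 CPM in experiment 3. Experiment 2 held the 3 highest values with vehicle, T0070907 and the combination, and its RGZ library overlapped experiment 1. *JUND* was lower in experiment 3 than in experiment 2 (log2 difference -0.70, SE 0.08, adjusted p = 2.31e-06, edgeR) and higher in experiment 2 than in experiment 1 (log2 difference 0.51, SE 0.08, adjusted p = 0.000202, edgeR). *JUN* was lower in experiment 3 than in experiment 2 (log2 difference -0.56, SE 0.11, adjusted p = 0.00074, edgeR), a difference not called in a model without condition (adjusted p = 0.505, edgeR). *FOSL1* was lower in experiment 2 than in experiment 1 (log2 difference -0.22, SE 0.05, adjusted p = 0.00353, edgeR), and that call too was lost without condition in the model (adjusted p = 0.436, edgeR). *JUNB* ranged from 47.4 to 73.6 CPM and was called in no comparison of experiments.

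Among the other early genes, *IER3* was at 150.2, 129.8, 154 and 179.7 CPM in experiment 1, 156, 125, 147 and 147 CPM in experiment 2 and 226, 217, 221 and 245 CPM in experiment 3. The 4 libraries of experiment 3 were above the other 8, and within experiments 1 and 3 the combination library was the highest. *IER3* was higher in experiment 3 than in experiment 2 (log2 difference 0.66, SE 0.06, adjusted p = 6.26e-08, edgeR) and than in experiment 1 (log2 difference 0.57, SE 0.06, adjusted p = 2.21e-06, edgeR). *PHLDA1* was lower in experiment 3 than in experiment 2 (log2 difference -0.25, SE 0.06, adjusted p = 0.00187, edgeR), although not in a model without condition (adjusted p = 0.483, edgeR). *IER2*, *PHLDA2* and *MYC* were called in no comparison of experiments, and *IER2* ranged from 140.3 to 182 CPM and *PHLDA2* from 45.8 to 72.8 CPM. *MAFF*, a small MAF protein, ranged from 25.3 to 34.8 CPM, and *KLF6* is described with the treatments. Calls between experiments 3 and 2 near the threshold, for *MAFF* (log2 difference 0.21, SE 0.07, adjusted p = 0.0442, edgeR), for *KLF6* (log2 difference -0.27, SE 0.08, adjusted p = 0.0149, edgeR) and for *ETV5* (log2 difference 0.16, SE 0.05, adjusted p = 0.0435, edgeR), were lost when single libraries were left out. The adjusted p then reached 0.0586 to 0.194 for *MAFF*, 0.0529 to 0.0718 for *KLF6* and 0.0549 to 0.208 for *ETV5* (edgeR). For *MAFF* these were the vehicle library of experiment 3, the RGZ library of experiment 2, all T0070907 libraries and the combination libraries of experiments 2 and 3. For *KLF6* they were the vehicle and T0070907 libraries of experiment 3 and the combination libraries of experiments 2 and 3. For *ETV5* they were the vehicle and combination libraries of experiments 2 and 3, all RGZ libraries and the T0070907 libraries of experiments 1 and 2.

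Related gene lists were counted in the same test, in which 30.5% of all tested genes were called; whether a list differs from that share was not tested. In the ERK cascade, from RAS to ERK with their adaptors, 4 of 25 tested genes were called for experiment, among them *IQGAP1*, a scaffold (-0.36 for experiment 3 against 2), and *KSR1*, another scaffold (-0.73). Of the ERK-activated kinases and transcription factors, 7 of 19 were called, with *RPS6KA3* at 0.57 and *MKNK2* at -0.52. Other immediate early and delayed early genes were called in 19 of 28 cases. There, the orphan nuclear receptors *NR4A1* (1.48) and *NR4A2* (1.18) were higher in experiment 3 than in experiment 2. For other MAPK output genes the count was 9 of 19, with *TNC* at 0.99 and *IL1B* at -2.46, and for other MAPK phosphatases it was 4 of 7, with *DUSP10* at 1.41 and *PTPRR* at -1.65. All of these log2 differences were called by edgeR.

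Some markers of cell state and of other cell types were called between experiments as well, in lists of 2 to 12 tested genes, against 30.5% of all tested genes in the joint test and, for experiment 3 against 2, 11.5% higher and 14.4% lower. Of the heat shock and stress genes, 8 of 12 were called for experiment; between experiments 3 and 2 the called ones were 1 higher and 5 lower in experiment 3, with *HSPA1B* and *HSPA1A* lower in experiment 3 than in experiment 2 (-0.80 and -0.66, log2, called by edgeR). The summed level of that list was 10970, 11650, 10470 and 11310 CPM in experiment 1, 9599, 10300, 8788 and 9255 CPM in experiment 2 and 8717, 9307, 8186 and 8820 CPM in experiment 3, so experiment 3 was lowest under each condition. Of the 7 tested melanocyte lineage markers, 5 were called for experiment, and between experiments 3 and 2 the called ones were 4 higher and 1 lower in experiment 3. Their summed level, led by *SOX10*, was 630.1, 527, 705 and 622 CPM in experiment 1, 438, 339, 525 and 466 CPM in experiment 2 and 879.8, 723, 964 and 843 CPM in experiment 3. Under each condition experiment 2 was lowest and experiment 3 highest, the order in which *SPRY2*, *SPRY4* and *EGR3* stood. Of the tested markers of other cell types, 2 of 4 for fibroblasts, 2 of 3 for keratinocytes, 2 of 3 for immune cells and 2 of 2 for endothelial cells were called for experiment. Within these lists the genes went different ways: from experiment 2 to experiment 3 *COL1A1* (-2.47) and *CD68* (-0.96) were lower, while *LUM* (0.48) and *LYZ* (1.32) were higher (log2, called by edgeR). The part of these markers in the members' differences was not tested, and in bulk RNA fewer cells of a state cannot be told apart from less RNA per cell.

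**Figure D4:**
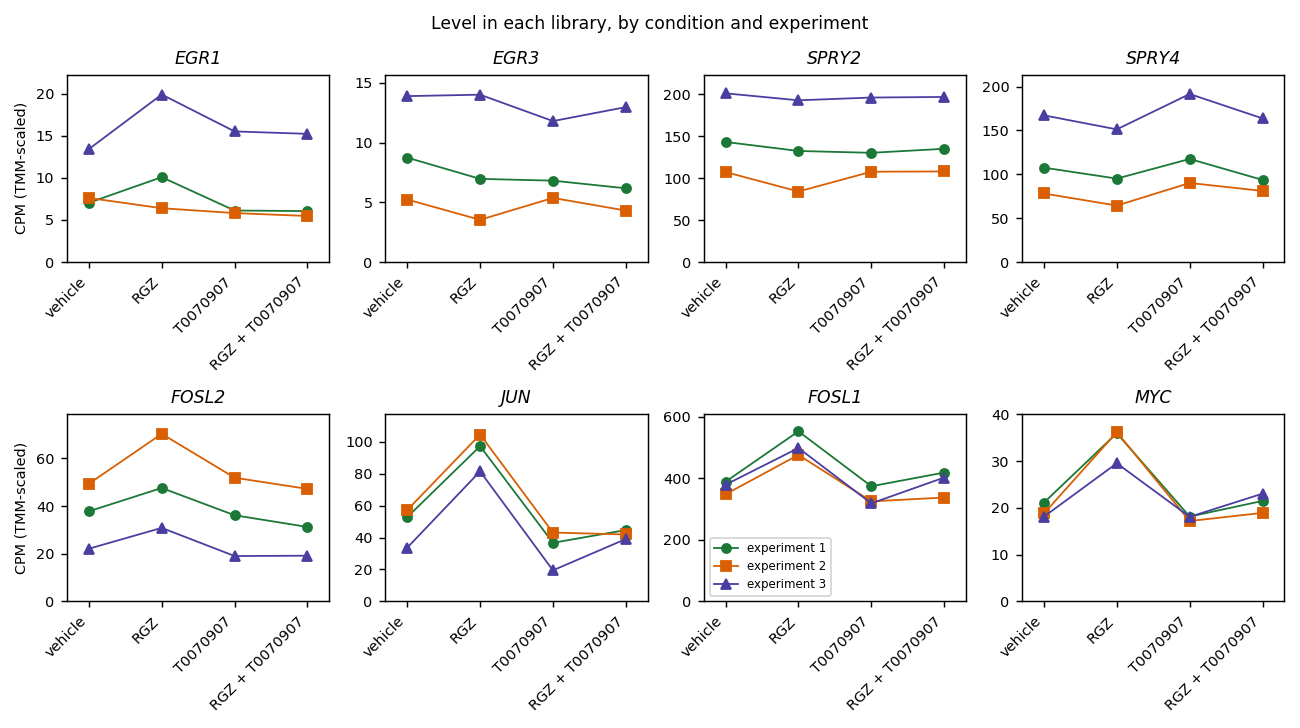
CPM of 8 members (vertical axes) under each condition (horizontal axes), with 1 point per library and lines joining the libraries of an experiment. In *EGR3*, *SPRY2* and *SPRY4* the lines of the 3 experiments do not meet, whereas in *MYC* the RGZ libraries (29.5 to 36.2 CPM) lie above all others.

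With experiment as a block, 9 members were called higher and 4 lower under RGZ than under vehicle. The largest called rises with the block were in *JUN*, *MYC* and *DUSP1* (log2 1.00, 0.81 and 0.59). The RGZ libraries of all 3 experiments lay above the other 9 libraries in 6 members (*DUSP2*, *ETV4*, *FOSL1*, *JUN*, *MYC* and *KLF6*), against 3.35% of all tested genes. Within experiments, RGZ was above vehicle in all 3 pairs for 14 members, against 24.6% of all genes, and below it in all 3 pairs for 10 of the 31, a share close to that of all genes, 25.7%. The members below vehicle each time were *DUSP6*, *SPRY1*, *SPRY2*, *SPRY4*, *SPRED1*, *SPRED2*, *ETV1*, *ETV5*, *JUND* and *IER3*.

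In the test without experiment as a block, 3 members were called between RGZ and vehicle, all higher (*ETV4*, *FOSL1* and *MYC*), against 1.24% of all tested genes (0.947% higher). The median log2 difference over the tested members was 0.10, against -0.01 over all genes. The count was 1, *MYC*, when any vehicle or RGZ library or the T0070907 library of experiment 2 was left out. The *ETV4* call was also lost without the T0070907 library of experiment 1 or 3, and the *FOSL1* call without the T0070907 or combination library of experiment 3. With experiment as a block, 13 members were called, 9 higher and 4 lower, against 9.3% of all genes (4.95% higher and 4.35% lower). That count was 8 when the vehicle library of experiment 3 or the RGZ library of experiment 2 or 3 was left out. The calls that were kept without each of these were those of *SPRY1*, *ETV4*, *FOSL1*, *FOSL2*, *JUN*, *PHLDA1* and *MYC*, joined by *DUSP1* without either library of experiment 3 and by *KLF6* without the RGZ library of experiment 2.

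**Figure D5:**
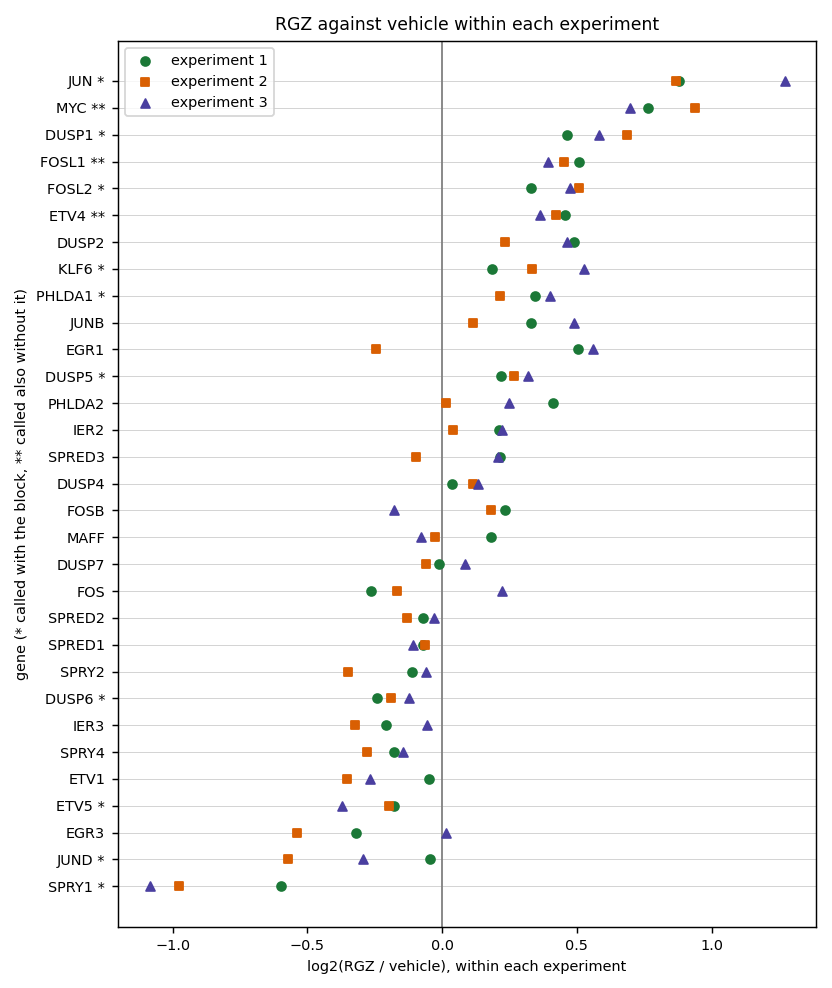
Log2 ratio of RGZ to vehicle CPM within each experiment (horizontal axis) for the 31 tested members (vertical axis, ordered by mean ratio, 1 asterisk for a call with the block and 2 for a call also without it). All 3 points lie to the right of 0 in 14 members and to the left in 10.

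Of the nuclear phosphatases, *DUSP1*, which acts on p38, JNK and ERK, was at 12.6, 22.01 and 12 CPM under vehicle, 17.5, 35.5 and 18.1 CPM under RGZ, 11.3, 16.6 and 13.1 CPM under T0070907 and 12.97, 18.2 and 13.9 CPM under the combination (experiments 1, 2 and 3 in that order, as in the sentences on treatment that follow). The RGZ library was the highest of its experiment each time, and across experiments the groups overlapped. With the block *DUSP1* rose under RGZ (log2 difference 0.59, SE 0.12, adjusted p = 0.00352, edgeR), and without it the difference was not called (adjusted p = 0.518, edgeR). *DUSP5*, a nuclear phosphatase of ERK, was at 38.95, 47.7 and 30.8 CPM under vehicle, 45.3, 57.4 and 38.5 CPM under RGZ, 35, 40.4 and 26.4 CPM under T0070907 and 35.95, 44.6 and 34.2 CPM under the combination. Here too the RGZ library was the highest in each experiment, with overlap across experiments. *DUSP5* rose with the block (log2 difference 0.27, SE 0.08, adjusted p = 0.0336, edgeR) and was not called without it (adjusted p = 0.69, edgeR). *DUSP2* was higher in each RGZ library than in the other 9 and was not called (log2 difference 0.40, SE 0.16, adjusted p = 0.145, edgeR, with the block). *DUSP6*, in the cytoplasm, was lower under RGZ with the block (log2 difference -0.18, SE 0.05, adjusted p = 0.0403, edgeR) and not called without it (adjusted p = 0.726, edgeR).

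*SPRY1* fell under RGZ with the block (log2 difference -0.95, SE 0.19, adjusted p = 0.00289, edgeR) and was not called without it (adjusted p = 0.424, edgeR). *SPRY2* and *SPRY4* were below vehicle in every experiment, by log2 differences of -0.16 (adjusted p = 0.167) and -0.19 (adjusted p = 0.0719) with the block in edgeR, neither called.

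With the block, the ETS factors of the PEA3 group were called for condition, and they were not called in the joint test of experiments. In the latter test the adjusted p was 0.143 for *ETV1*, 0.05125 for *ETV4* and 0.0811 for *ETV5* (edgeR). Without the block, *ETV1* and *ETV5* were not called for condition (adjusted p = 0.343 and 0.116, edgeR). *ETV4* differed by a small called amount between experiments 3 and 1 (log2 difference 0.16, SE 0.05, adjusted p = 0.0421, edgeR), and DESeq2 did not call it (adjusted p = 0.0582). That call was also lost in a model without condition (adjusted p = 0.659, edgeR) and when any 1 of the RGZ and vehicle libraries of experiments 1 and 3, the T0070907 libraries or the combination library of experiment 3 was left out (adjusted p 0.0653 to 0.205, edgeR). *ETV4* was at 217, 247 and 255 CPM under vehicle, 298, 332 and 328 CPM under RGZ, 207, 221 and 223 CPM under T0070907 and 249.5, 238 and 283 CPM under the combination. All 3 RGZ libraries were above the other 9. *ETV4* rose under RGZ without the block (log2 difference 0.41, SE 0.08, adjusted p = 0.0356, edgeR) and with it (log2 difference 0.41, SE 0.06, adjusted p = 0.000101, edgeR). *ETV5* was at 81.2, 77.9 and 95.8 CPM under vehicle, 71.7, 67.9 and 73.9 CPM under RGZ, 88.7, 88.3 and 91.8 CPM under T0070907 and 73.0, 71.4 and 79.5 CPM under the combination. All RGZ libraries were below all vehicle and T0070907 libraries and overlapped the combination. *ETV5* fell under RGZ with the block (log2 difference -0.25, SE 0.06, adjusted p = 0.016, edgeR) and was not called without it (adjusted p = 0.225, edgeR). *ETV1* was at 44.5, 46.3 and 52.0 CPM under vehicle, 43.0, 36.2 and 43.1 CPM under RGZ, 49.7, 52.8 and 58.9 CPM under T0070907 and 36.9, 53.2 and 49.8 CPM under the combination. Its RGZ libraries were below those of vehicle and T0070907, and the combination overlapped all groups. *ETV1* was called in the joint test of conditions with the block (adjusted p = 0.0426, edgeR), not for RGZ against vehicle (log2 difference -0.22, adjusted p = 0.214).

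The EGR and *FOS* genes showed no called response to RGZ. With the block the log2 difference was 0.35 for *EGR1* (SE 0.15, adjusted p = 0.166, edgeR), and RGZ was above vehicle in experiments 1 and 3 and below it in experiment 2. For *EGR3*, *FOS* and *FOSB* the differences were -0.20, -0.04 and 0.05 with adjusted p of 0.467, 0.957 and 0.9 (edgeR).

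Among the AP-1 subunits, *JUN* was at 52.8, 57.2 and 33.6 CPM under vehicle, 97.3, 105 and 81.5 CPM under RGZ, 36.7, 43.1 and 19.5 CPM under T0070907 and 44.7, 42.0 and 39.1 CPM under the combination. All 3 RGZ libraries were above the other 9, and the T0070907 library was the lowest in experiments 1 and 3. *JUN* rose under RGZ with the block (log2 difference 1.00, SE 0.12, adjusted p = 1.96e-05, edgeR) and was not called without it (log2 difference 0.98, SE 0.25, adjusted p = 0.0944, edgeR). *FOSL1*, whose expression depends on ERK in many tumours, was at 389, 348 and 379 CPM under vehicle, 552, 476 and 498 CPM under RGZ, 374, 325 and 318 CPM under T0070907 and 418, 337 and 402 CPM under the combination. Its 3 RGZ libraries were above the other 9. *FOSL1* rose without the block (log2 difference 0.45, SE 0.10, adjusted p = 0.0427, edgeR) and with it (log2 difference 0.45, SE 0.06, adjusted p = 2.98e-05, edgeR). *FOSL2* rose (log2 difference 0.44, SE 0.08, adjusted p = 0.000934, edgeR) and *JUND* fell (log2 difference -0.32, SE 0.10, adjusted p = 0.0452, edgeR) under RGZ with the block, and neither was called without it (adjusted p = 0.768 and 0.704, edgeR).

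*MYC*, the growth-promoting transcription factor, was at 21.1, 18.8 and 18.1 CPM under vehicle, 35.97, 36.2 and 29.5 CPM under RGZ, 18.1, 17.2 and 18.1 CPM under T0070907 and 21.5, 18.9 and 23.04 CPM under the combination. The RGZ libraries were above the other 9, which spanned 17.2 to 23.04 CPM. *MYC* rose under RGZ without the block (log2 difference 0.81, SE 0.11, adjusted p = 0.00461, edgeR) and with it (log2 difference 0.81, SE 0.10, adjusted p = 2.73e-05, edgeR), and the call without the block was kept when any 1 of the 12 libraries was left out. *KLF6*, a zinc-finger factor induced early by growth factors, was at 48.3, 46.8 and 37.7 CPM under vehicle, 54.9, 58.9 and 54.3 CPM under RGZ, 44.5, 41.5 and 36.2 CPM under T0070907 and 39.2, 51.9 and 37.5 CPM under the combination. Again the 3 RGZ libraries were above the other 9. *KLF6* rose with the block (log2 difference 0.35, SE 0.09, adjusted p = 0.0181, edgeR) and was not called without it (adjusted p = 0.355, edgeR). *PHLDA1*, an ERK-dependent pleckstrin-homology protein, was at 409.6, 552 and 459 CPM under vehicle, 520.2, 641 and 606 CPM under RGZ, 304, 445 and 323 CPM under T0070907 and 393, 572 and 496 CPM under the combination. In each experiment the RGZ library was the highest and the T0070907 library the lowest. *PHLDA1* rose under RGZ with the block (log2 difference 0.32, SE 0.06, adjusted p = 0.00251, edgeR) and was not called without it (adjusted p = 0.561, edgeR).

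Beside the members, related lists were counted for RGZ against vehicle, where the share of all tested genes called was 1.24% in the fit without the block and 9.3% in the blocked fit; at these shares few calls would be found in lists this short. Of the other immediate early and delayed early genes, 3 of 28 were called without the block, namely *KLF4* (1.43), *KLF10* (0.73) and *PLAUR* (0.64). With the block 14 of 28 were called, 11 higher and 3 lower, the lower ones being *THBS1* (-0.45), *CCN2* (-0.38) and *CCN1* (-0.28). Of the other MAPK output genes, 1 of 19 was called without the block, *MAP2K3* (0.46), and 6 of 19 with it, among them *IL1B* (2.07). Of the ERK cascade 0 of 25 genes were called without the block (2 at an unadjusted p under 0.05) and 1 of 25 with it, the adaptor *GAB2* (-0.44). The ERK-activated kinases and transcription factors had 0 of 19 without and 0 of 19 with the block (1 and 3 at an unadjusted p under 0.05), and the other MAPK phosphatases had 0 of 7 and 0 of 7 (1 and 2). Of the heat shock and stress genes 0 of 12 were called without the block (2 at an unadjusted p under 0.05) and 4 of 12 with it, all higher, with *HMOX1* at 0.54. Of the tested melanocyte markers, 0 of 7 were called without the block (0 at an unadjusted p under 0.05) and 3 of 7 with it, all lower. The markers of other cell types had no call without the block (0 at an unadjusted p under 0.05); with it 1 of 4 for fibroblasts, 1 of 3 for keratinocytes and 1 of 2 for endothelial cells were lower and 1 of 3 for immune cells was higher. These are log2 differences by edgeR, and DESeq2 and limma-voom were run for the members only. The reference genes of PPAR activity rose without the block by log2 differences of 6.24 for *ANGPTL4*, 2.72 for *PDK4*, 2.62 for *PLIN2* and 0.78 for *CPT1A*.

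T0070907 alone lowered *PHLDA1* and left the rest of the module without a called difference. *PHLDA1* fell with the block (log2 difference -0.41, SE 0.06, adjusted p = 0.00248, edgeR), in all 3 experiments. It was the only member called, against 0.91% of all tested genes. The count was 0 without the T0070907 library of experiment 3. It was 2, with *JUN* as the other, without the T0070907 library of experiment 2 or any combination library. *JUN* was at a log2 difference of -0.55 with the block (SE 0.13, adjusted p = 0.0608, edgeR). Without the block edgeR called 0 members, against 0.0074% of all genes, with 1 at an unadjusted p under 0.05 and 0 by DESeq2 and by limma-voom.

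With both agents no member was called against vehicle. That comparison uses the same vehicle libraries as those of RGZ and T0070907 alone, so their values are given side by side: with the block the log2 difference of *MYC* from vehicle was 0.81 for RGZ, -0.12 for T0070907 and 0.13 for the combination. For *JUN* the 3 values were 1.00, -0.55 and -0.17. For *ETV4* they were 0.41, -0.14 and 0.10, and for *FOSL1* 0.45, -0.13 and 0.05. *PHLDA1* had 0.32, -0.41 and 0.04, and *SPRY1* had -0.95, 0.21 and -0.10.

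The combination against vehicle gave 0 called members by edgeR without the block, with 0% of all genes called and 1 member at an unadjusted p under 0.05, and 0 by DESeq2 and by limma-voom. With the block edgeR called 0 members and 0% of all genes, with 3 members (*SPRED1*, *SPRED2* and *ETV5*) at an unadjusted p under 0.05, while DESeq2 and limma-voom were run without the block. The lowest adjusted p of any gene was 0.453 without and 0.0959 with the block. Without the combination library of experiment 2, 6 members were called with the block (*SPRED1*, *SPRED2*, *ETV4*, *JUNB*, *IER2* and *PHLDA2*). The median log2 difference of the members with the block was -0.04, against -0.00118 over all genes.

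Against RGZ alone, with the block, the combination was lower in *DUSP1*, *DUSP5*, *ETV4*, *FOSL1*, *FOSL2*, *JUN*, *PHLDA1*, *MYC* and *KLF6* and higher in *SPRY1*, *JUND* and *IER3*. This comparison shares the RGZ libraries with that of RGZ against vehicle. Without the block *JUN* (log2 difference -1.17, SE 0.25, adjusted p = 0.0444, edgeR) and *MYC* (log2 difference -0.68, SE 0.11, adjusted p = 0.0119, edgeR) were called, 2 members lower, against 1.24% of all tested genes (0.924% lower). Each combination library of *JUN* and of *MYC* was below each RGZ library. The count was 0 without the RGZ library of experiment 1 or 2 or the combination library of experiment 1, where *MYC* had adjusted p of 0.0552, 0.051 and 0.0578 (edgeR). It was 1, *MYC*, without the vehicle or T0070907 library of experiment 1, the RGZ library of experiment 3, or the combination library of experiment 2 or 3. In DESeq2 the count was 4 (*ETV4*, *FOSL1*, *JUN* and *MYC*).

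With the block, 12 members differed between the combination and RGZ (8 without the RGZ library of experiment 3, 14 without the combination library of experiment 1), 3 higher and 9 lower, against 11.4% of all genes (5.55% higher and 5.88% lower). The phosphatases *DUSP1* (log2 difference -0.63, SE 0.12, adjusted p = 0.00214, edgeR) and *DUSP5* (log2 difference -0.29, SE 0.08, adjusted p = 0.018, edgeR) were lower. So were *ETV4* (log2 difference -0.32, SE 0.06, adjusted p = 0.00131, edgeR), *FOSL1* (log2 difference -0.40, SE 0.06, adjusted p = 0.000112, edgeR) and *FOSL2* (log2 difference -0.61, SE 0.08, adjusted p = 4.11e-05, edgeR). *JUN* was lower with the block too (log2 difference -1.17, SE 0.12, adjusted p = 4.88e-06, edgeR), as were *MYC* (log2 difference -0.68, SE 0.10, adjusted p = 0.000147, edgeR), *KLF6* (log2 difference -0.39, SE 0.09, adjusted p = 0.00744, edgeR) and *PHLDA1* (log2 difference -0.29, SE 0.06, adjusted p = 0.00615, edgeR). *SPRY1* was higher (log2 difference 0.85, SE 0.19, adjusted p = 0.00688, edgeR), as were *JUND* (log2 difference 0.36, SE 0.09, adjusted p = 0.0202, edgeR) and *IER3* (log2 difference 0.29, SE 0.07, adjusted p = 0.00745, edgeR).

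RGZ given on top of T0070907 was read from the combination against T0070907 alone, a comparison that shares the combination libraries with the one before. With the block, 4 members (12.9%) were called, against 8.76% of all tested genes, and 11 members had an unadjusted p under 0.05. *ETV4* (log2 difference 0.24, SE 0.06, adjusted p = 0.0214, edgeR) and *PHLDA1* (log2 difference 0.45, SE 0.06, adjusted p = 0.000509, edgeR) were higher. *SPRY4* (log2 difference -0.23, SE 0.06, adjusted p = 0.0333, edgeR) and *ETV5* (log2 difference -0.27, SE 0.06, adjusted p = 0.0191, edgeR) were lower, and each of these 4 members moved in its direction in all 3 experiments. The count depended on single libraries: it was 1, *PHLDA1*, without the T0070907 library of experiment 1 or 2 or the combination library of experiment 3, 2 without the T0070907 library of experiment 3, and 13 without the combination library of experiment 2. Without the block edgeR called 0 members, against 0.037% of all genes, with 4 at an unadjusted p under 0.05 (*ETV4*, *ETV5*, *PHLDA1* and *MYC*) and 0 by DESeq2 and by limma-voom.

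The interaction compares the effect of RGZ in the presence of T0070907 (combination against T0070907) with its effect in the absence of it (RGZ against vehicle). *FOSL2* was the member called, with the block (log2 difference -0.56, SE 0.11, adjusted p = 0.0452, edgeR), against 0.281% of all genes. Its log2 ratio of RGZ to vehicle within experiments 1, 2 and 3 was 0.33, 0.51 and 0.48, and its log2 ratio of the combination to T0070907 was -0.21, -0.14 and 0.01. The first 3 ratios lay above the other 3. The count was 0 without any vehicle or RGZ library, the T0070907 library of experiment 1 or 2 or the combination library of experiment 3, and 2 without the T0070907 library of experiment 3 (with *JUN*) or the combination library of experiment 2 (with *IER3*). *MYC* had -0.56 (SE 0.15, adjusted p = 0.151, edgeR) and *JUN* -0.62 (SE 0.18, adjusted p = 0.216, edgeR) and were not called. Without the block edgeR called 0 members, against 0% of all genes, with 1 (*MYC*) at an unadjusted p under 0.05 and 0 by DESeq2 and by limma-voom.

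Some members share exons with another gene in GENCODE, and strand use in the counting is not given in the sources used here, so reads of a member and of a partner on the opposite strand cannot be told apart. This concerns *ETV4* (*DHX8*), *JUNB* (*HOOK2*), *IER3* (*IER3-AS1*) and unnamed antisense or noncoding genes at *DUSP6*, *EGR3*, *IER2* and *PHLDA1*, and *ETV5* overlaps *DGKG* on the same strand. *DHX8*, an RNA helicase, differed between RGZ and vehicle by a log2 difference of 0.07 (adjusted p = 0.56, edgeR) with the block, against 0.41 for *ETV4*. *DGKG*, a diacylglycerol kinase, differed by 0.15 (adjusted p = 0.456, edgeR), against -0.25 for *ETV5*. Between experiments 3 and 2, *DHX8* differed by 0.15 (adjusted p = 0.0522, edgeR) and *ETV4* by 0.07. *DGKG* differed there by 0.18 (adjusted p = 0.2, edgeR) and *ETV5* by 0.16, in the same direction. The part of the partners in the members' values was not tested.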

How the data were processed

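RNA of A375 cells was measured in 12 libraries (TruSeq libraries on an Illumina sequencer), 3 per condition, 1 per condition in each experiment. The deposited values are whole-number counts per Entrez gene, made by the authors with human genome build hg19; the aligner, counter, annotation and strand use are not given in the sources used here. Of 23705 genes, 23538 had a symbol. Members and lists were chosen with earlier results of these data known. In R 4.3.3, edgeR 4.0.16 filtered genes (filterByExpr by condition), scaled libraries by TMM and fitted quasi-likelihood models to all 12 libraries, with Benjamini-Hochberg adjustment over 13522 genes. Treatment contrasts were fitted without and with experiment as a block, and experiment contrasts with condition as a term. Standard errors are the absolute log2 difference over the square root of F and are approximate. Shares of variance are sums of squares of log2 CPM (prior count 2). The scripts were tested on simulated data.

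The titles of the libraries number the experiments, which pairs the libraries. Deviations from the group means correlated within experiments by 0.0793 to 0.758 (mean 0.554), lowest for the combination library of experiment 1 (0.0793, 0.194 and 0.162 with the others of its experiment), and by -0.27 on average between experiments. The mean between experiments is no separate observation, because deviations from a group's mean cancel out within that group. The number of the combination library of experiment 1 rests on its title alone. With this library 20 members were called for experiment, and without it 26. Principal component 1 took up 40.2% of the variance, and experiment explained 94.3% of it, while condition explained 93.0% of component 2. The common dispersion was 0.0193 without and 0.00333 with the block.

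Values in every library are given for members called for treatment in either fit, for the 8 members called for experiment with the largest span of experiment means at 1 CPM or more, and for the 3 members of 10 CPM or more with the smallest share by experiment. From each related list, up to 3 called genes with the largest differences are named. The genes that overlap a member (*DHX8* and *DGKG*) and members named beside a count were picked after their values were seen. Alternatives were DESeq2 1.42.0, limma-voom (limma 3.58.1), DESeq2 size factors, no filter, a minimum of 10 counts in every library, an adjusted p under 0.01, only the groups compared, the block with a GC correction (GC known for 98.4% of tested genes), experiment without condition, a prior count of 0.5, and leaving out each library or experiment. Floors of 3 counts cover counting error only.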

Additional observations from a re-analysis of the deposited data

Results flagged for a closer look

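*FOSL2* was called in the interaction test: the log2 effect of RGZ in the presence of T0070907 minus its effect in the absence of it was -0.56 (SE 0.11, adjusted p = 0.0452, edgeR, with experiment as a block). Without the block it was not called (adjusted p = 0.9998, edgeR). It was the only member among the 31 tested with a called difference between the effects. With the block, *JUN* (-0.62) and *MYC* (-0.56) had differences of similar size that were not called. The *FOSL2* call was lost without any vehicle or RGZ library, the T0070907 library of experiment 1 or 2 or the combination library of experiment 3, and no explanation was tested. Groups of 3 libraries were not examined for outlying samples.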

How the results depend on the processing

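In the main fits (without the block for treatment) 51 member differences were called, and none of them changed sign under any alternative. Treatment differences called only with the block were not followed in this way. Of the 51, 24 lost their call under at least 1 alternative. Over all pairs and alternatives 854 kept it and 120 did not. With the replicate block the members called were 13 for RGZ against vehicle, 1 for T0070907, 12 for the combination against RGZ, 4 for it against T0070907, 1 for the interaction and 16 for any condition, instead of 3, 0, 2, 0, 0 and 4, and 0 as before for the combination against vehicle. With the replicate block and a GC correction they were 16, 2, 14, 4, 1 and 19. At an adjusted p under 0.01 the counts were 1 for RGZ against vehicle, 0 for the combination against RGZ, 1 for any condition and 8 for experiment 3 against 1. DESeq2 called 4 for the combination against RGZ. With only the groups compared, RGZ against vehicle and the combination against RGZ had 1 each, fewer libraries being fitted. Without condition in the model, experiment 2 against 1 had 6 and experiment 3 against 2 had 12. A fit that leaves out experiment or condition counts the differences of that factor as spread between libraries. The common dispersion was 0.0193 without the block and 0.00333 with it. How far this accounts for each shift was not tested. Leaving out 1 library at a time gave 1 to 3 for RGZ against vehicle, 0 to 2 for the combination against RGZ, 2 to 4 for any condition, 0 for the other treatment contrasts, 12 to 16, 8 to 16 and 16 to 22 for experiments 2 against 1, 3 against 1 and 3 against 2, and 18 to 26 for any experiment. Leaving out 1 library in the fit with the replicate block, an alternative chosen after seeing the data, gave 8 to 17 for RGZ against vehicle, 0 to 2 for T0070907, 0 to 6 for the combination against vehicle, 8 to 14 against RGZ, 1 to 13 against T0070907, 0 to 2 for the interaction and 12 to 20 for any condition. Leaving out 1 experiment gave median shares of 18.7 to 47.7% by experiment and 30.7 to 61.8% by condition. Without the combination library of experiment 1, which correlated least with its experiment, the block counts were 17 for RGZ against vehicle, 14 for the combination against RGZ and 18 for any condition, and 26 members were called for any experiment. Depth limits *FOS* (about 3 CPM) and *EGR2* most, whose counts were the lowest of the members.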
